A study of Mus musculus with 2 samples.

Results

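Gluconeogenesis and glycerol use in mouse liver were followed through 8 genes, Pck1, Pck2, G6pc, Fbp1, Pcx, Slc37a4, Aqp9 and Gpd1, which were chosen by name as enzymes and carriers of this route, by a rule that uses no measured value but with earlier results of these data known. All 8 had a probe whose transcript identifier maps to the gene symbol, among 20648 gene names on the array. Each was represented by 1 probe, and all 8 probes were well above background on both arrays. Liver RNA came from male mice under 2 conditions, fasting and feeding, with 1 array per condition and a pool of 3 mice on each array. The fasting mice went without food overnight for 14 to 16 h, given as 16 h in the sample description. The second group is described in one place as given food after the fast and in another as fed ad libitum, and it is called feeding here. Strain and age are not in the labels. Mice for the experiments as a whole were C57BL/6 J or transgenic on the C57BL/6 background, at an age of about 8 to 12 weeks, which the methods do not tie to these livers, and no genetic change or drug is given for either group. Since each array holds a single pool, the spread between mice is not known, no p-value is given, and a difference between the conditions cannot be told apart from a difference between the pools.

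Gluconeogenesis is the route by which liver makes glucose from lactate, alanine and glycerol when no glucose arrives from the gut. Pyruvate enters through Pcx in the mitochondrion, phosphoenolpyruvate is made by Pck1 in the cytosol or Pck2 in the mitochondrion, and Fbp1 and then Slc37a4 with G6pc complete the path to free glucose. Glycerol released from fat joins at the triose phosphates, after entry through Aqp9 and phosphorylation by glycerol kinase, with Gpd1 linking glycerol 3-phosphate and dihydroxyacetone phosphate in either direction. Transcription of Pck1 and G6pc is a textbook target of glucagon, glucocorticoid and insulin signaling in hepatocytes.

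The 8 genes divided into 4 that differed at least 2-fold between the arrays and 4 that hardly differed. Pck1, G6pc and Aqp9 were lower upon feeding, Gpd1 was higher, and Pck2, Fbp1, Pcx and Slc37a4 lay between -0.09 and 0.08 on the log2 scale of the difference, feeding minus fasting. Thus 3 of 8 genes were at least 2-fold lower, where 4.62% of all 16343 genes measured were, and 1 of 8 was at least 2-fold higher, where 3.29% were. The 16343 genes include 1831 that cleared the background test on 1 array only. For 1147 of these the array that cleared it did not have the higher signal once the lower bound was taken, so no fold is given. These 1147 stay in the total of every share of all genes and could not be called or ranked. In either direction 50% of the 8 genes were past 2-fold, against 7.91% of all genes, and since the genes were chosen with results known, this contrast is a description only. Over the whole array 755 genes were lower and 537 higher, a split that turned to 648 and 717 under median scaling, while that of the 8 genes did not change. The median difference of the 8 genes was -0.08, and that of all genes was 0.01, with quartiles of -0.28 and 0.29. The 2-fold threshold is that of the study's methods. Signals are intensities after background subtraction, given first as read from the array and then, for the differences, after quantile normalization between the arrays.

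**Figure D1:**
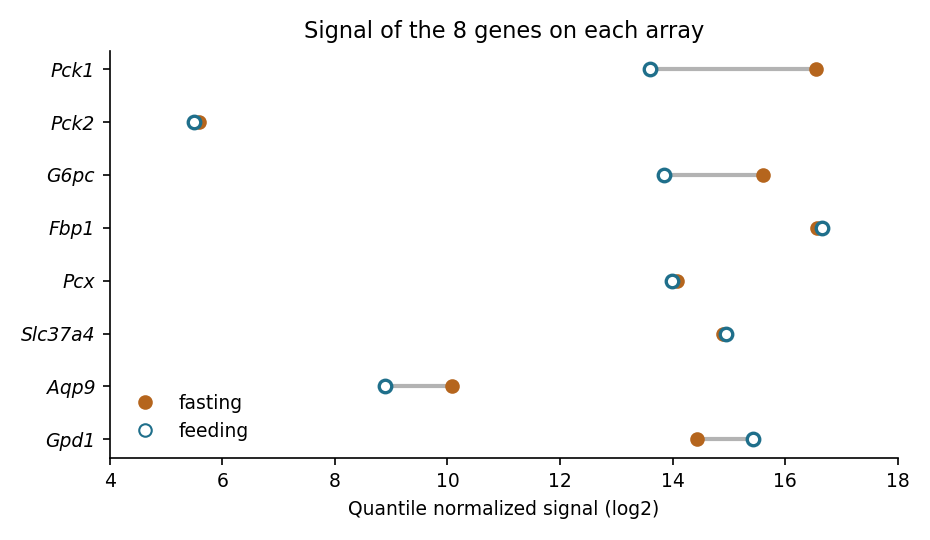
Quantile normalized log2 signal (x axis) of the 1 probe of each of the 8 genes (y axis) on the fasting array (filled) and the feeding array (open), 1 array each with no error bar. The points of Pck1, G6pc and Aqp9 lie further left upon feeding and that of Gpd1 further right, while both points nearly coincide for Pck2, Fbp1, Pcx and Slc37a4; positions of different genes cannot be compared, since each probe has its own response.

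The entry of pyruvate and the formation of phosphoenolpyruvate gave the largest contrast within the route. Pck1, the cytosolic phosphoenolpyruvate carboxykinase, had a signal of 100863 upon fasting and 12356 upon feeding. This is a log2 difference of -2.95, or 7.72-fold lower upon feeding, so that 13.0% of the normalized fasting signal was left. Pck1 ranked 41 among the decreases of the 16343 genes measured, and 0.245% of these genes had a lower difference. Pck2, the mitochondrial enzyme of the same reaction, was spotted 10 times on each array. Its spots ran from 47.6 to 56.1 with a median of 52.2 upon fasting, and from 36.3 to 49.8 with a median of 40.9 upon feeding. All 10 spots were well above background on both arrays, and each was lower upon feeding before normalization, by 0.31 on average on the log2 scale of the difference, while the ranges overlapped. After quantile normalization the difference of the means was -0.09, with an error of 0.23 from the spot errors of the scanner software. The median signal of all transcript spots was likewise lower upon feeding, 52.8 against 61.5. Pcx, the pyruvate carboxylase that forms oxaloacetate for both carboxykinases, had signals of 17262 and 16109 and a difference of -0.08, close to the spot SD of 0.07.

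**Figure D2:**
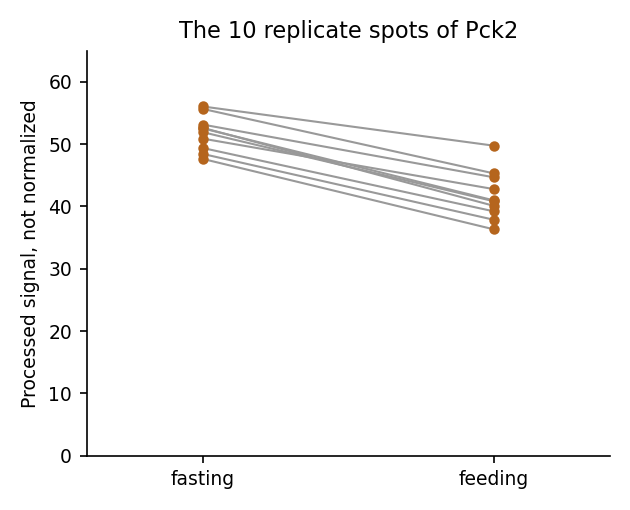
Processed signal before normalization (y axis, from 0) of the 10 replicate spots of the Pck2 probe on the fasting and the feeding array, with a line joining the spot at the same position of both arrays. All 10 lines slope down, and the signals of 47.6 to 56.1 upon fasting overlap those of 36.3 to 49.8 upon feeding.

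The last steps of the route did not move as a block. Fbp1, fructose 1,6-bisphosphatase, had signals of 103099 upon fasting and 100505 upon feeding, with a difference of 0.08. G6pc, the catalytic subunit of glucose 6-phosphatase, had 51477 upon fasting and 14639 upon feeding. Its difference was -1.77, or 3.41-fold lower upon feeding, and 1.41% of all genes had a lower difference. Slc37a4, the transporter that brings glucose 6-phosphate to G6pc inside the endoplasmic reticulum, had signals of 30848 and 30902 and a difference of 0.05. The catalytic subunit and its transporter therefore differed from each other in their response by far more than the spread of spots, which was 0.09 for each. The signs of the small differences of Fbp1, Pcx and Slc37a4 changed with the scaling or background correction, so no direction is given for these genes.

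The genes of glycerol use moved in opposite directions. Aqp9, the aquaglyceroporin through which hepatocytes take up glycerol, had a signal of 1121 upon fasting and 449.9 upon feeding, which is a difference of -1.19, or 2.29-fold lower upon feeding. Gpd1, the cytosolic glycerol 3-phosphate dehydrogenase, had 22285 upon fasting and 43582 upon feeding, which is a difference of 1.01, or 2.01-fold higher. Gpd1 lay on the threshold itself, with a difference of 0.97 and no call where the arrays were not normalized, and 1.20 with each array scaled by its median. Of the enzymes around them, Gk, the glycerol kinase, was lower upon feeding, as Aqp9 was, with 4552 upon fasting and 1623 upon feeding, a difference of -1.44. Gpd2, the mitochondrial glycerol 3-phosphate dehydrogenase, had 871.1 and 1904, a difference of 1.20, and Tkfc, the triokinase that feeds glyceraldehyde into the triose phosphates, had 15541 and 49368, a difference of 1.72. Aqp9 and Gk, which act before glycerol 3-phosphate, were thus both lower, and the dehydrogenases Gpd1 and Gpd2 were higher upon feeding.

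**Figure D3:**
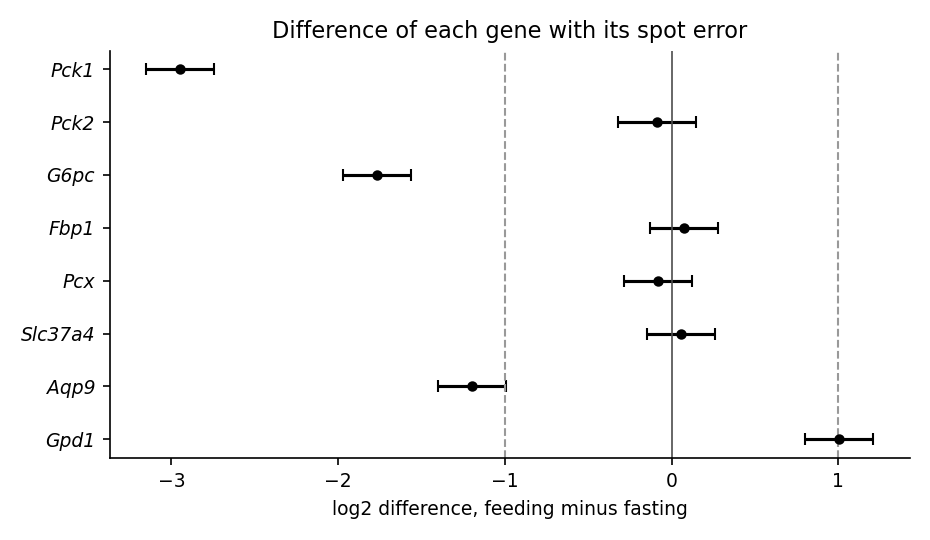
Difference of the log2 signals, feeding minus fasting (x axis), for the 8 genes (y axis); bars are the error of the difference from the spot errors of the scanner software, 0.20 for 7 genes and 0.23 for Pck2, and dashed lines mark 2-fold. Pck1 at -2.95 and G6pc at -1.77 lie past the line by more than their bars, while the bars of Aqp9 at -1.19 and Gpd1 at 1.01 both reach across it.

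The error of these values is known for the array only. The scanner software attaches an error of about 10% to each signal of 7 of the genes, and of 12.2% and 10.7% to Pck2, which makes 0.20 to 0.23 on the log2 scale of the difference. Probes spotted repeatedly on each array gave a smaller spread at similar signals, with an SD of 0.07 to 0.20 for the difference between single spots. Against either figure the differences of Pck1, G6pc, Aqp9 and Gpd1 from 0 exceeded the spread of the measurement, and those of the other 4 genes did not exceed the error attached by the software. Local background was at most 46.8 at the spots of the 8 genes upon fasting and at most 24.5 upon feeding, against medians of 30.2 and 22.5 over the arrays, so that it was small beside every signal other than that of Pck2.

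Under the other scalings and the other background correction tried, Pck1 stayed between -3.03 and -2.79, G6pc between -1.83 and -1.58 and Aqp9 between -1.32 and -1.07, and all 3 remained at least 2-fold lower in each of these settings. With the alternative threshold of 3-fold, Pck1 and G6pc were the members past it. Scaling each array by its median moved the median difference of all genes to 0.13, and leaving the arrays unnormalized moved it to -0.11.

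**Figure D4:**
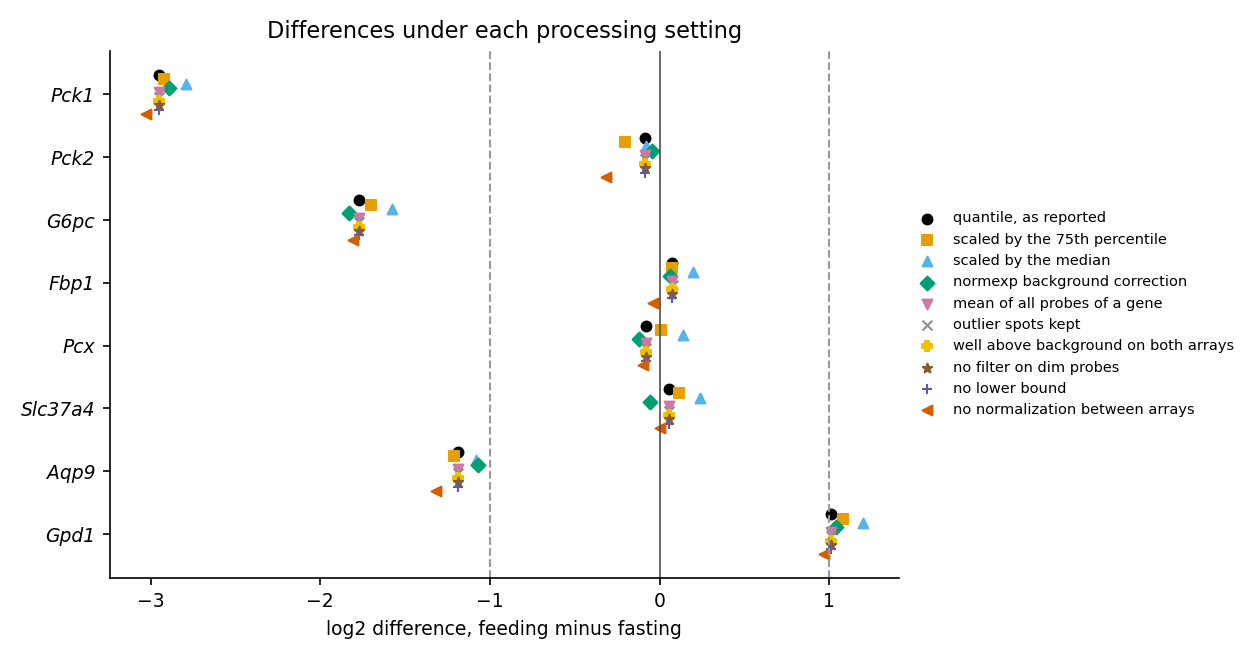
Difference of the log2 signals, feeding minus fasting (x axis), of the 8 genes (y axis) as reported and under each other way of processing (symbols); dashed lines mark 2-fold. All symbols of Pck1, G6pc and Aqp9 lie left of -1, those of Gpd1 lie between 0.97 and 1.20, and those of Fbp1, Pcx and Slc37a4 fall on both sides of 0.

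The region before the transcription start is shown for Pck1 and G6pc, which had the largest decreases, and for Pck2 and Fbp1, which catalyse steps of the same route and hardly differed. The 250 bases before the start were taken from RefSeq on the GRCm38.p6 build. Windows were matched for 7 of the 8 genes, not for Gpd1, and made 11 windows in all. Each is written 5′ to 3′ on the strand of the gene, and capitals mark matches on either strand to TGACG (a core of the cAMP response element), TGTTTTG (part of the insulin response unit), TGTTTAC (a FoxO site), AGAACA (a core of the glucocorticoid receptor site), AGGTCA (a nuclear receptor core) or TATAAA (the TATA box).
Pck1, chr2:173152823-173153072, plus strand: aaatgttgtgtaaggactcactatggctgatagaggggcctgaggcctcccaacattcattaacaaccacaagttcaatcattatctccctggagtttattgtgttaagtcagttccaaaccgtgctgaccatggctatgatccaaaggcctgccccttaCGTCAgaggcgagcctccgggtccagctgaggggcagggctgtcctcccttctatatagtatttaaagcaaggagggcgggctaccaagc
G6pc, chr11:101367466-101367715, plus strand: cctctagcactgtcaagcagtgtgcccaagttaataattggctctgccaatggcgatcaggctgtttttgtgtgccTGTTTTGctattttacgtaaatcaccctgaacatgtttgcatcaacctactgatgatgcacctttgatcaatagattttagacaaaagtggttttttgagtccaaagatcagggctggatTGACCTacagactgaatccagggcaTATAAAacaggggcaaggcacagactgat
Pck2, chr14:55540016-55540265, plus strand: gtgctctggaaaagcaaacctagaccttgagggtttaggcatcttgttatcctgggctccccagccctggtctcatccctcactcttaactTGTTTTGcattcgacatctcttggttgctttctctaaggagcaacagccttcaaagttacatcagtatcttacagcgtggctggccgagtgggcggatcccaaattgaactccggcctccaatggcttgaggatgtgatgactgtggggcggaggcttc
Fbp1, chr13:62888283-62888532, minus strand: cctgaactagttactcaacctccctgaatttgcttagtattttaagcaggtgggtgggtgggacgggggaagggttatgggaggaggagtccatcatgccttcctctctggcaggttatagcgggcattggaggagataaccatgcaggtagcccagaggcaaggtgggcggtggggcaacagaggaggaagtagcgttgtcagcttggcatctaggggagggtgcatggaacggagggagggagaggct

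Among these 4 windows the letters TGACG were found in that of Pck1 alone, 90 to 86 bases before the start. Other spellings of the cAMP response element were not searched, so the G6pc window is not shown to lack one. The same letters were also found in windows of Slc37a4, which hardly differed, and in 17.8% of all 32851 windows. The G6pc window held the insulin response unit letters 174 to 168 bases before the start, the nuclear receptor core and the TATA box, which occur in 5.56%, 14.0% and 12.4% of all windows. The nuclear receptor core and the TATA box were also found in windows of Slc37a4. The Pck2 window held the insulin response unit letters as well, 159 to 153 bases before the start. Pck2 and G6pc differed by -0.09 and -1.77. The glucocorticoid receptor core was in 1 window of Aqp9 and in 16.1% of all windows. The Fbp1 window held none of the 6 motifs, and the FoxO letters, present in 3.17% of all windows, were in none of the windows of these genes. Only exact letters within the 250 bases were searched, so sites further upstream or spelled otherwise are not covered. These are matches of short letters that many windows hold, and their part in the differences was not tested.

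The neighbouring steps and the regulators of the route were described by 5 lists holding 44 genes, all of which were measured. Of these, 7 were at least 2-fold lower and 4 at least 2-fold higher upon feeding, or 25% against 7.91% of all genes, with a median difference of 0.12 against 0.01. Since the lists were chosen with results known, this contrast is a description only. The 7 reversible steps shared with glycolysis held no gene past 2-fold. Their median was 0.40, with 0.76 for Gpi1, the glucose 6-phosphate isomerase, and 0.49 for Tpi1, the triose phosphate isomerase.

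Substrate entry was divided as well, mostly by Gk, Gpd2 and Tkfc, which were described above with the glycerol genes. Of its 14 genes 2 were lower and 2 higher past 2-fold, with a median of 0.12. Besides Gk, the lower one was Sds, the serine dehydratase that turns serine into pyruvate, with 19515 upon fasting and 5844 upon feeding and a difference of -1.72. Gpd2 and Tkfc were the higher ones. The pyruvate carriers Mpc1 and Mpc2 differed by 0.19 and 0.08, and the malate dehydrogenases Mdh1 and Mdh2 by 0.13 and 0.12.

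Among the enzymes listed as opposing gluconeogenesis, Pklr, the liver pyruvate kinase, had 107.8 and 224.0, a difference of 1.26. This was 0.78 under the normexp background correction and then within 2-fold. Pfkl differed by -0.09. Pfkfb1, a bifunctional kinase and phosphatase that is not only an opposing enzyme, differed by -0.97.

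Of the 13 regulators 4 were at least 2-fold lower upon feeding and none higher, with a median of -0.56. Of all genes 4.62% were at least 2-fold lower, with a median of 0.01. The count of lower regulators was 3 under median scaling and 3 under the normexp correction. Ppargc1a, which encodes the coactivator PGC-1α, had 1434 upon fasting and 135.1 upon feeding, a difference of -3.26, and its 2 probes gave -3.26 and -3.48. Under the normexp correction the difference was -2.45. Cebpb, a transcription factor of the C/EBP family, differed by -1.37. Foxo1, a transcription factor held back by insulin signaling, differed by -1.12. Under median scaling this was -0.92, which is within 2-fold. Irs2, a substrate of the insulin receptor, differed by -1.08, and by -0.42 under the normexp correction. The glucagon receptor gene Gcgr differed by 0.18. Creb1 was dim, with 49.3 upon fasting and 44.7 upon feeding, and its 2 probes gave 0.08 and 0.42.

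Relatives of the 8 genes in the same families were mostly dim. Fbp2, the muscle type bisphosphatase, was not well above background upon feeding, with signals of 21.4 and 4.84, and was at least 3.09-fold lower there. Under the normexp correction it differed by -0.24. G6pc3, the widely expressed glucose 6-phosphatase subunit, differed by 0.27 and the other measured relatives by -0.18 to 0.66, with no fold for Aqp3, which was not well above background upon fasting.

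**Figure D5:**
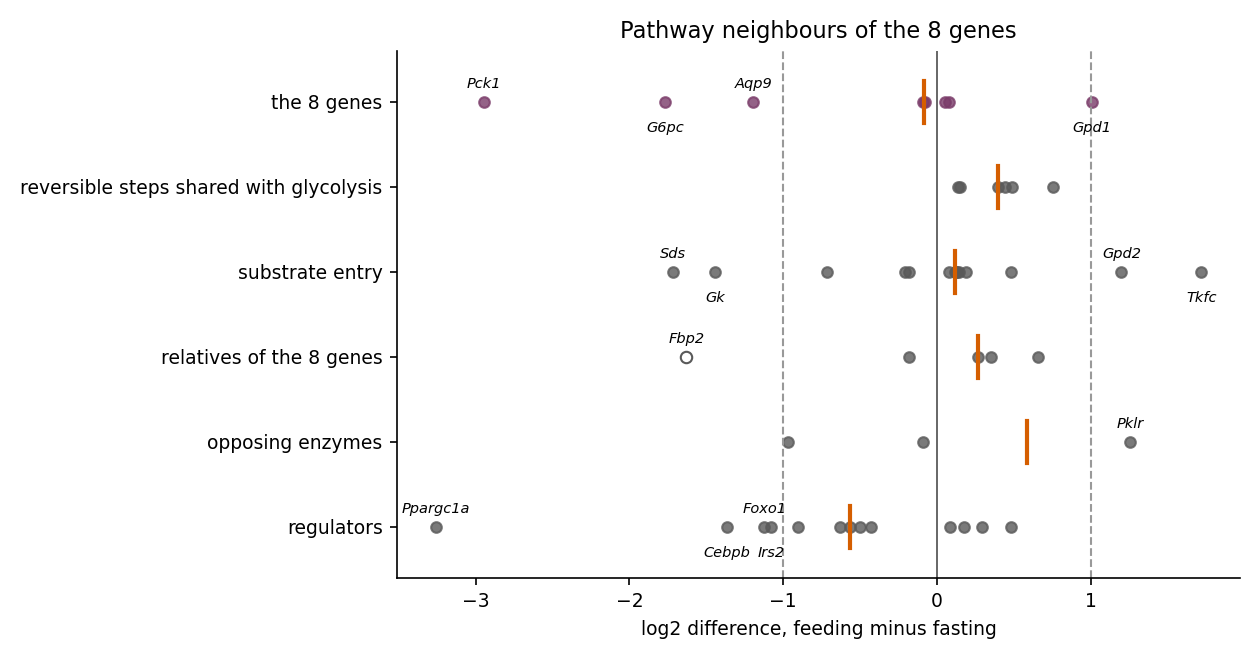
Difference of the log2 signals, feeding minus fasting (x axis), of the 8 genes and of the genes of each pathway list (rows, 1 point per gene drawn); vertical bars are medians over the whole list, dashed lines mark 2-fold, an open point is a lower bound and genes past 2-fold are named. Decreases past 2-fold fall among the 8 genes, substrate entry, the relatives and the regulators, and increases among the 8 genes, substrate entry and the opposing enzymes.

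The labels give the tissue as liver. All 5 hepatocyte markers, Alb, Apoa1, Ttr, Tat and Hnf4a, passed the background filter on both arrays. The filter alone does not identify the tissue, since the kidney markers Lrp2 and Slc5a2 passed it too. Alb had a normalized signal of 151264 upon fasting and 144433 upon feeding. After quantile normalization Alb, Apoa1 and Ttr differed by -0.07, -0.07 and -0.02, and Hnf4a and Tat by -0.43 and -0.97. The summed normalized signal of the 5 was 431494 upon fasting and 351027 upon feeding, of which Tat made 104878 and 53470. Tat, the tyrosine aminotransferase gene, was 1.96-fold lower upon feeding, just within the 2-fold threshold. In bulk RNA, fewer cells of a type and less RNA per cell cannot be told apart. Pck1 and G6pc are most active in periportal hepatocytes. The 6 markers of these cells differed by -0.33 to 0.24, with a summed normalized signal of 366509 upon fasting and 337301 upon feeding, and none was past 2-fold. The 5 pericentral markers differed by -0.70 to 0.75. The 3 measured Kupffer cell markers differed by -0.89 to -0.11, with a sum of 29215 upon fasting and 20714 upon feeding, and the 3 endothelial markers by -1.04 to -0.11, with sums of 10653 and 8609 and with Pecam1 past 2-fold. Sums were 38410 and 29876 for the 4 stellate cell markers, 1197 and 884.6 for the 3 leukocyte markers and 77.1 and 80.6 for the 3 cholangiocyte markers. None of the markers with a fold was called past 2-fold. Des, Cd79a and Krt7 were not well above background upon fasting. Des and Cd79a gave no fold, and the difference of 0.19 for Krt7 is a lower bound. The part of these cell types in the differences of the 8 genes was not tested. The adipocyte marker Adipoq was indistinct from background upon fasting and upon feeding, and Fabp4 differed by -0.06. The adipocyte marker Plin1, with signals of 3.32 and 9.77, was well above background upon feeding only and gave no fold. The summed kidney markers were 62.9 and 83.9.

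With 2 arrays the likeness of genes can be measured by the log2 difference alone. The genes nearest to Pck1 in this measure were Ccl7 at -2.93 and Jaml at -2.98, and those nearest to G6pc were Slc35e3 and I730030J21Rik at -1.77 and -1.78. Hnrnph2 and Jmy lay nearest to Aqp9, both at -1.20, and Osbpl8 and N4bp3 nearest to Gpd1, both at 1.01. Slide and scan were shared by the conditions, while the position on the slide was not.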

How the data were processed

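The deposited files are the Agilent Feature Extraction 11.0.1.1 output of 2 single-colour (Cy3) arrays of the Whole Mouse Genome design, 1 per condition, and hold intensity values per spot that the authors did not normalize between arrays; a processed signal has the background subtracted. The deposited value table holds the local background of the same 44397 spots and was used only to check this. No spot was saturated.

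Control spots (1377) and outlier spots (123 upon fasting, 98 upon feeding) were left out, log2 processed signals were averaged over the spots of a probe and quantile normalized as in the study's methods (Python 3.11.15, pandas 2.3.3). Of 39402 probes 27212 (69.1%) were named through RefSeq transcripts of GRCm38.p6, and the array design names an older build, so no probe coordinates are given; the promoter coordinates are those of GRCm38.p6. A gene took the value of its probe with the highest mean signal if that probe cleared the software's background test on either array; where it cleared it on 1 array only, the fold is a lower bound against the dimmest signal that cleared it. The share of transcript spots over background was 63.1% for the fasting array and 72.3% for the feeding array, and the number of arrays limits the precision. A gene counted as past the threshold at 2-fold, with no test.

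The 8 genes, the lists and the motifs were chosen with earlier results of these data known. Named genes are the 8 members, list genes past 2-fold (otherwise at most 2 of the largest, with others named for their role after their values were seen) and the 2 nearest genes to each member past 2-fold. The processing was varied by scaling to the median or 75th percentile, normexp with offset 50 on the median signal (limma 3.58.1, R 4.3.3), the mean of probes, outlier spots, other filters and thresholds, and, added after the data were seen, no normalization. Some list genes enter the counts and medians and are not reported by name here.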

Additional observations from a re-analysis of the deposited data

How the results depend on the processing

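No paired analysis was possible because each condition has 1 array. Naming probes through a gene name column was not run, since only transcript identifiers were used here. No value reversed among those past 2-fold. The counts of 3 members lower and 1 higher were kept under every alternative except 3-fold and no normalization. At 3-fold 2 members were lower and 0 higher. Without normalization 0 were higher, and Pck2 differed by -0.31 and Aqp9 by -1.32. Scaling by the median gave -2.79 for Pck1, -1.58 for G6pc, -1.08 for Aqp9, 1.20 for Gpd1, 0.14 for Pcx and 0.24 for Slc37a4, and scaling by the 75th percentile gave 0.0098 for Pcx. Normexp gave -0.059 for Slc37a4 and -1.07 for Aqp9. Of the 44 list genes 11 were lower at 1.5-fold, and 3 lower and 2 higher at 3-fold. Over the whole array 755 genes were lower and 537 higher past 2-fold. These counts were 312 and 215 under normexp, 1736 and 1714 at 1.5-fold, 311 and 158 at 3-fold, 1184 and 838 with no filter on dim probes, 648 and 717 with scaling by the median, 978 and 389 without normalization, and 876 higher without the lower bound. The cause of these shifts was not tested. Signal over background limits what can be said of the dim genes Pck2, Fbp2, Irs2, Pklr and Creb1.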

Other observations

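Probes of 1 gene differed for some neighbours of the route. The 3 probes of Insr, the insulin receptor gene, ran from -0.89 to 1.01 on the log2 scale of the difference, feeding minus fasting, and the brightest gave -0.63. The 7 probes of Gapdh, the glyceraldehyde 3-phosphate dehydrogenase gene, ran from -0.54 to 0.36, the 3 of Ldha, a lactate dehydrogenase gene, from -0.53 to 0.14, and the 2 of Nr3c1, the glucocorticoid receptor gene, from -0.43 to 0.48. For these genes the sign depends on the probe. The 3 probes of Gpi1, by contrast, gave 0.60 to 0.76.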
